A study of Mus musculus with 16 samples.

Results

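The 32 genes described here are *Trp53*, the mouse gene of p53, and 31 genes known as regulators or transcriptional targets of p53. They were taken by symbol and not by a threshold on values, but the choice was made with earlier results of these data known. All 32 were found among the 55359 genes of the deposited count tables. Of these, 31 passed a filter on low counts and were tested together with 17190 genes in all. The exception was *Tnfrsf10b*, a receptor of the death ligand TRAIL, with between 0 and 13 counts per library.

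The cells were MPI-2, a wild-type mouse line of alveolar-like macrophages that was kept in medium with 0.6 µg/mL of the growth factor GM-CSF and used between passages 8 and 50. RNA-seq of polyadenylated RNA had been made from cells exposed to Mycobacterium abscessus, a fast-growing nontuberculous mycobacterium that can live inside macrophages, and from uninfected cells, at day 1 and at day 5. There were 4 libraries in each of the 4 groups (exposed day 1, uninfected day 1, exposed day 5, uninfected day 5), labelled as biological replicates of the one line. The bacterial strain, the dose and the share of infected cells are not given in the sources used here. Values are averages over all cells of a culture, so that a change in every cell and a larger change in some cells cannot be told apart, nor can fewer cells of a kind and less RNA per cell.

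p53 is a transcription factor that is kept scarce by MDM2, which marks it for degradation, and by MDM4, which binds and blocks it. DNA damage and other stresses free p53 from these inhibitors, largely through changes to the protein and not to its mRNA. It then raises genes that arrest the cell cycle, trigger apoptosis, repair DNA or limit growth metabolism, among them *Mdm2* itself, which closes a negative feedback loop. In macrophages p53 also meets inflammatory signalling, since NF-kB and other factors act on some of the same genes.

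Libraries held between 46154875 and 81995629 counts. Levels are given as CPM (the gene's share of a library's counts, on the usual per-million scale) after scaling by TMM, which corrects for library composition, and SD is over 4 libraries. All 16 markers of alveolar macrophages were detected in every group, with summed levels between 17936 and 31570.5 CPM per library. In the uninfected libraries *Chil3* held the most counts of the 16, while *Siglecf* stood between 4.29 and 9.87 CPM over all libraries. *Chil3* had 126075 to 231083 counts in exposed day 5 libraries, against 791429 to 1559826 in uninfected day 5 libraries. Exposure moved many of these markers at day 5. By the test described below, 8 of the 16 were called higher, beside 28.6% of all genes, and 4 of them by at least 2-fold, beside 13.6%. The 5 called lower, beside 28.4%, all fell by at least 2-fold, beside 9.33%. Log2 fold changes ran from −2.43 to 3.02. *Csf1r*, the M-CSF receptor, was 8.14-fold higher and *Mrc1*, the mannose receptor, 3.68-fold lower. Markers of other cell types summed to 295 to 384 CPM in uninfected day 1 libraries, 757 to 1044 in exposed day 1, 439 to 605 in uninfected day 5 and 412 to 878 in exposed day 5 libraries. Most of these sums came from *S100a8*, and between 5 and 10 of the 17 genes were at 0 in a group, *Col1a2*, *Cd3g* and *Hbb-bs* in all 4. Only 5 of the 17 passed the filter. At day 1, *S100a8* was called higher in exposed cells, beside 13.4% of all genes. At day 5 *Cdh5* and *Pecam1* of endothelium and *Ly6g* of neutrophils were called higher, beside 28.6%, and *Col1a1* of fibroblasts lower, beside 28.4%. The largest of these differences was that of *Cdh5*, at 2.6, 5.05, 1.15 and 2.72 CPM in exposed and 0.216, 0.357, 0.419 and 0.429 CPM in uninfected day 5 libraries (log2 fold change 3.02 ± 0.39 SE, edgeR adjusted p = 2.18e-06), while *Pecam1*, *Ly6g* and *Col1a1* stayed under 4 CPM in every library. The exposed day 5 libraries stood apart in 2 respects. Their genes varied more between replicates, with a median SD of 0.299 on the log2 scale against 0.113 to 0.148 in the other groups, and mitochondrial genes took 0.780% to 1.24% of counts against 1.58% to 1.84% in uninfected day 5 libraries. The part of these differences in the results below was not tested.

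To show what the DNA near these genes holds, 250 bases before the annotated start are printed for 4 members and for *Cdkn1a*, the gene of the cell cycle inhibitor p21, which is the best known p53 target outside the 32 and serves here as a reference. They were chosen to show the same short match beside 2 genes that were higher at day 5 (*Mdm2* and *Gadd45a*), 2 that were lower (*Ccng1* and *Bax*) and 1 that was not called. Each runs 5′ to 3′ on the strand of its gene in RefSeq's GRCm38.p6 annotation, with chr10:117710759-117711008 (minus strand) for *Mdm2*, chr6:67037408-67037657 (minus) for *Gadd45a*, chr11:40755287-40755536 (minus) for *Ccng1*, chr7:45466899-45467148 (minus) for *Bax* and chr17:29090729-29090978 (plus) for *Cdkn1a*, before the more upstream of its 2 annotated starts. Capitals mark matches to the p53 half-site, a 10-base motif that p53 binds in pairs, searched on both strands.
Mdm2: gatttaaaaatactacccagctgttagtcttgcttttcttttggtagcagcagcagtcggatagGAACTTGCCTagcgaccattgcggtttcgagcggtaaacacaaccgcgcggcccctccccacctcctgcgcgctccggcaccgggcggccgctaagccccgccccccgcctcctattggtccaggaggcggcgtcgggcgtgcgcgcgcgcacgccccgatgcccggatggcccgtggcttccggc
Gadd45a: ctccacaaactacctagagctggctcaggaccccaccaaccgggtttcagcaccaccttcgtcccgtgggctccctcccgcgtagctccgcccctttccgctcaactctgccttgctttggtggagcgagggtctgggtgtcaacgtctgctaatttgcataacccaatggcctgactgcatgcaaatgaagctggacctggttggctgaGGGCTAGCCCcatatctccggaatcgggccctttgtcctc
Ccng1: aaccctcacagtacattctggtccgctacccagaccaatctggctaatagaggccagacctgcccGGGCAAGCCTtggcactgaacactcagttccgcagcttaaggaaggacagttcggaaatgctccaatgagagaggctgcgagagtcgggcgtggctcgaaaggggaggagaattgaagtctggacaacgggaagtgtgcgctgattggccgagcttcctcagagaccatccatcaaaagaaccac
Bax: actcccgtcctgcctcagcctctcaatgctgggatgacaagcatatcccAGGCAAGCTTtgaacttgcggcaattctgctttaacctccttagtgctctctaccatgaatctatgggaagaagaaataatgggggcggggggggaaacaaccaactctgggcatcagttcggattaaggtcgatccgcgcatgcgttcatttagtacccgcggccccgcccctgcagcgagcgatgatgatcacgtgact
Cdkn1a: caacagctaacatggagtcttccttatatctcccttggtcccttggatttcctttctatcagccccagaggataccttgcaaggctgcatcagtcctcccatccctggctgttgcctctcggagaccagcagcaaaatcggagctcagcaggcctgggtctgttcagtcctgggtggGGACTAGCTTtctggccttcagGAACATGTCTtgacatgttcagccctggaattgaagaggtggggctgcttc

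The matches begin 186 bases before the start in *Mdm2*, 40 in *Gadd45a*, 185 in *Ccng1* and 201 in *Bax*, and the *Cdkn1a* stretch has 2, at 73 and 51 bases. RefSeq windows from 250 bases before to 50 bases after a start were found for 24 of the 32 members. A half-site lay in at least 1 window of 10 of them (*Aen*, *Bax*, *Ccng1*, *Ei24*, *Gadd45a*, *Mdm2*, *Polk*, *Ppm1d*, *Sesn1* and *Trp53*), against 9.55% of all 27025 genes with such windows. By the test described below, which called 28.6% of all genes higher and 28.4% lower at day 5, 3 of these 10 were called higher at day 5, 4 lower and 3 not called. Among the 14 members with windows but no match, 8 were called higher, 4 lower and 2 not called. The NF-kB site was found in 2 of the 24 members (*Bbc3* and *Trp53*) and in 7.81% of all genes. TGATGNAA, the element read by ATF4 with a C/EBP partner, was found in 1 member (*Polk*) and in 4.51% of all genes. A match of this kind is a description of the letters and does not show that a factor is bound, and response elements outside these windows were not searched.

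At day 1 more members were higher than lower in exposed cells, and at day 5 the members were split. A gene is called here when its edgeR quasi-likelihood test, with Benjamini-Hochberg adjustment over the 17190 genes, gave an adjusted p under 0.05. At day 1, 10 of the 31 tested members (32.3%) were called higher, beside 13.4% of all genes tested, and 1 (3.23%) was called lower, beside 10.5%. At day 5, 11 members (35.5%) were called higher, beside 28.6% of all genes, and 12 (38.7%) lower, beside 28.4%. In either direction, 35.5% of the members and 23.8% of all genes were called at day 1, and 74.2% and 57% at day 5. The median log2 fold change of the members was 0.20 at day 1 and −0.15 at day 5, against 0.03 and 0.02 over all genes tested. Called changes of at least 2-fold were seen in 2 of the 31 members that were higher at day 1, beside 4.45% of all genes tested. At day 5 they were seen in 8 that were higher, beside 13.6% of all genes, and 3 that were lower, beside 9.33%.

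The number of calls at day 1 depended on which libraries were fitted together. In the main fit the 4 groups shared 1 estimate of spread (dispersion) per gene, so the exposed day 5 libraries entered the day 1 tests. A fit of the day 1 libraries alone renewed this estimate, the filter (15858 genes tested), the scaling and the adjustment. With exposed day 5 replicates 2 and 3 left out, 17.9% of all genes were called higher at day 1 and 16.1% lower. The share of each step in the shift was not tested. When only the 8 day 1 libraries were fitted, 18 members were called higher (beside 23% of all genes) and 4 lower (beside 21.3%), while the same choice at day 5 gave 10 higher (beside 25.7%) and 12 lower (beside 24.5%). Scaling by library totals without the TMM factor gave 9 members higher and 16 lower at day 5, where all genes moved to 24.5% higher and 33% lower. Replicates 1 and 2 and replicates 3 and 4 carry separate runs of library codes, except exposed day 5 replicates 2 and 3, whose codes are of another series. Fitted alone they called 6 and 3 members higher at day 1 (beside 4.66% and 3.33% of all genes higher), and 9 higher with 12 lower and 10 higher with 9 lower at day 5 (beside 22.1% higher and 21.8% lower, and 19.5% in each direction).

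**Figure D1:**
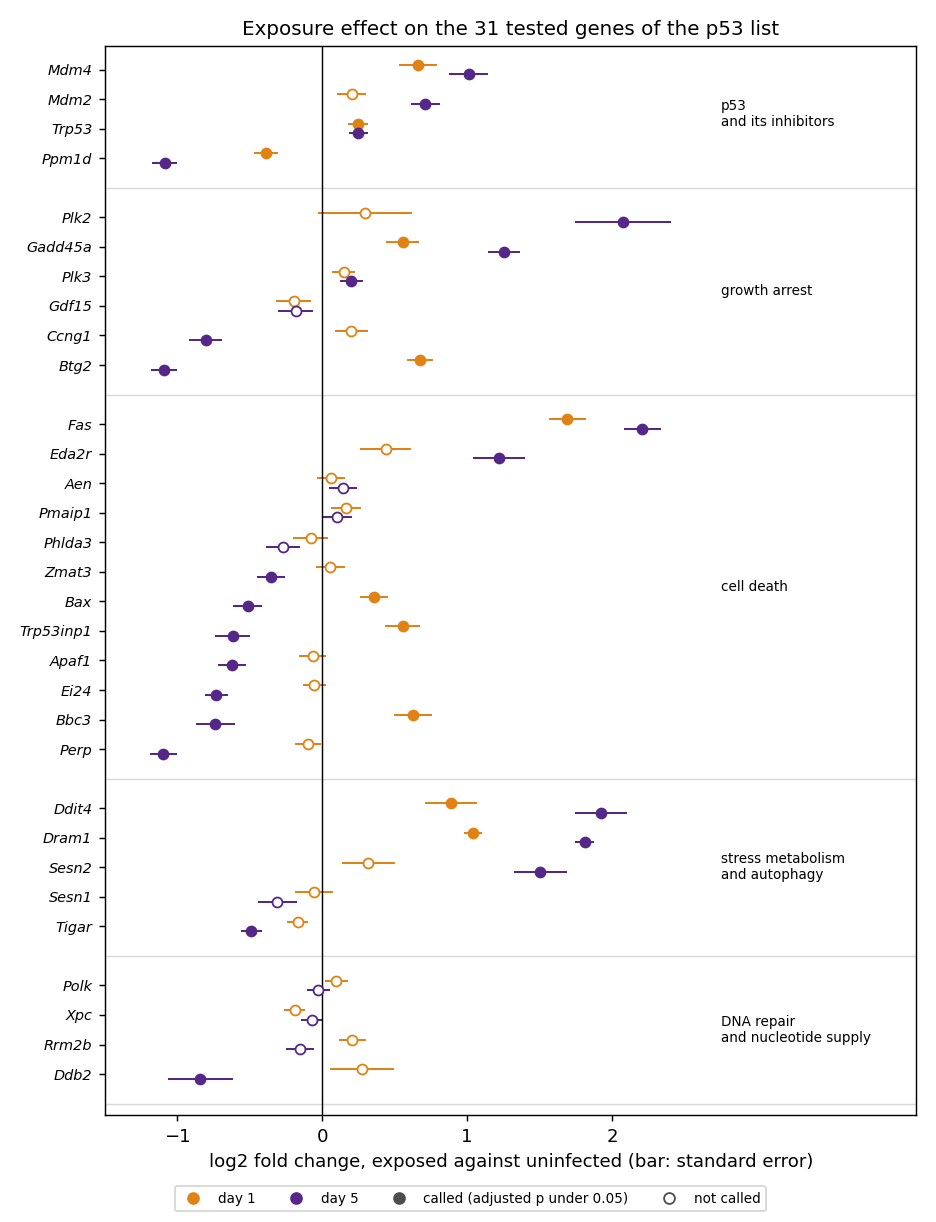
Log2 fold change of exposed against uninfected cells (x axis) for each of the 31 tested genes (y axis, grouped by role), with day 1 in orange, day 5 in purple, bars of 1 standard error and filled points for called genes. At day 1, 22 of the 31 points lie right of 0, while at day 5 the genes spread from −1.10 (*Perp*) to 2.21 (*Fas*). The cell death group then holds 7 genes called lower and 2 called higher, beside 28.4% and 28.6% of all genes tested.

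p53 and 3 proteins that restrain it did not move as one. The mRNAs of p53, *Mdm2* and *Mdm4* were higher in exposed cells at day 5, whereas that of *Ppm1d*, which encodes the phosphatase WIP1 that removes activating phosphates from p53 and its kinases, was lower at both days. *Trp53* stood at 67.3, 65.5, 67.6 and 67.3 CPM in the uninfected day 1 libraries (replicates 1 to 4 here and below) and at 80.6, 76, 79.8 and 81 CPM in the exposed ones. At day 5 it stood at 52.5, 55.2, 50.2 and 45.6 CPM in uninfected and 59.7, 58.5, 59.5 and 64.1 CPM in exposed libraries. All exposed libraries lay above all uninfected libraries of the same day, and both groups were lower at day 5 than at day 1. The difference was small, 1.19-fold at day 1 (log2 fold change 0.25 ± 0.066 SE, edgeR adjusted p = 0.0115) and 1.19-fold at day 5 (log2 fold change 0.25 ± 0.067 SE, edgeR adjusted p = 0.00359). At day 5 it was not called with library totals as the scale, where the log2 fold change was 0.16, or with replicates 1 and 2 alone (0.13). The day 1 call was lost with genes of at least 1 read kept (0.22, edgeR adjusted p = 0.129). It was also lost with replicates 1 and 2 alone (0.24, edgeR adjusted p = 0.109) and with replicates 3 and 4 alone (0.25, edgeR adjusted p = 0.249). Between days uninfected cells themselves fell by 0.40 on the log2 scale (edgeR adjusted p = 0.000397). How reads shared with the processed pseudogene *Trp53-ps* were assigned is not given in the sources used here.

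*Mdm2* was measured at 111, 116, 109.7 and 110.0 CPM in uninfected and 127, 122, 124 and 141 CPM in exposed cells at day 1. At day 5 the uninfected libraries held 112, 111, 106 and 113 CPM and the exposed ones 153, 219, 152 and 198 CPM. The groups did not overlap at either day, and at day 5 replicates 2 and 4 were the highest. At day 1 the difference was 1.15-fold and not called (log2 fold change 0.20 ± 0.10 SE, edgeR adjusted p = 0.147), although it was called with the 8 day 1 libraries alone (edgeR adjusted p = 0.00475). At day 5 it was 1.63-fold and called (log2 fold change 0.71 ± 0.10 SE, edgeR adjusted p = 5.75e-06), and the effect was larger than at day 1 (edgeR adjusted p of the interaction = 0.00866). *Mdm4* averaged 103 ± 2.08 CPM in uninfected and 163 ± 36.5 CPM in exposed day 1 libraries, and 106 ± 7.48 and 213 ± 40.9 CPM at day 5. It was 1.58-fold higher at day 1 (log2 fold change 0.66 ± 0.13 SE, edgeR adjusted p = 0.00151) and 2.01-fold higher at day 5 (log2 fold change 1.01 ± 0.13 SE, edgeR adjusted p = 2.77e-06), and among exposed day 1 libraries replicate 4 stood apart at 217.9 CPM against 142 to 151 CPM. *Ppm1d* fell from 23.4 ± 0.669 to 17.9 ± 0.503 CPM at day 1, with a log2 fold change of −0.39 (edgeR adjusted p = 0.00224). At day 5 it was 9.65 ± 1.07 CPM in exposed against 20.5 ± 1.53 CPM in uninfected cells, 2.13-fold lower (log2 fold change −1.09 ± 0.084 SE, edgeR adjusted p = 2.13e-09), with no overlap at either day.

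*Cdkn1a*, through whose product p53 halts the cell cycle, was not called at either day. It was measured at 272, 279, 278 and 275 CPM in uninfected and 269.7, 263, 268 and 235 CPM in exposed cells at day 1. At day 5 uninfected libraries held 305, 310.4, 307 and 277 CPM and exposed libraries 211, 371, 186 and 327 CPM. Exposed replicates 2 and 4 lay above every uninfected day 5 library and replicates 1 and 3 below every one. The log2 fold change was −0.09 ± 0.15 SE at day 1 (edgeR adjusted p = 0.705) and −0.13 ± 0.15 SE at day 5 (edgeR adjusted p = 0.484), which does not show that the levels were equal. Leaving out exposed replicate 2 of day 5 made the fall a called one (−0.31, edgeR adjusted p = 0.048), while leaving out replicate 3 gave 0.02.

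**Figure D2:**
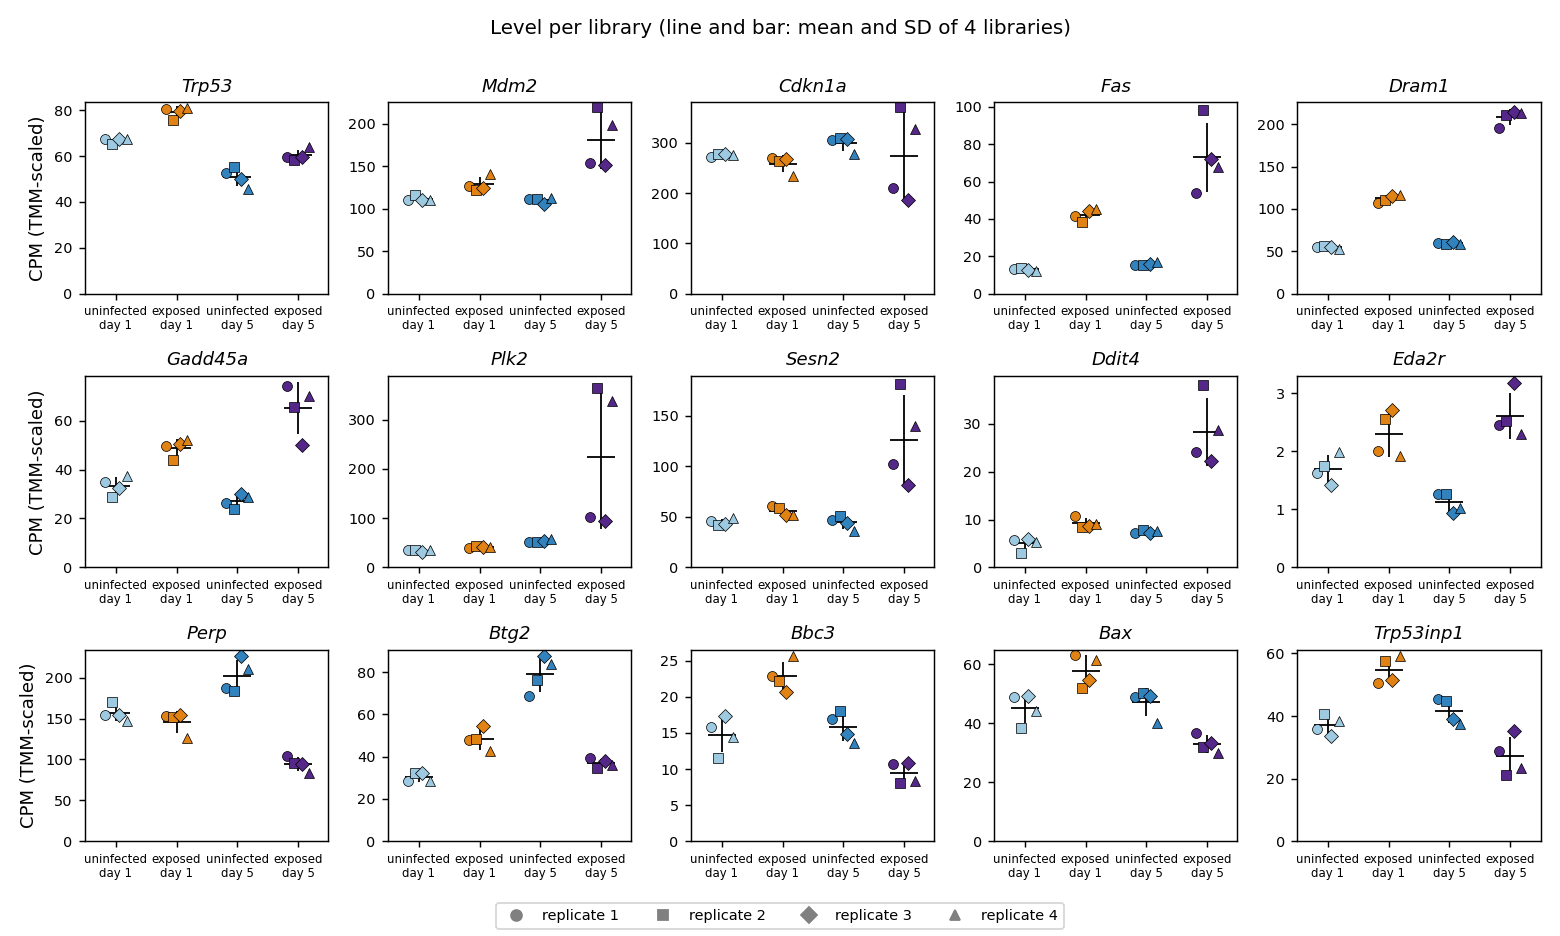
TMM-scaled CPM (y axes, from 0, a scale of its own per gene) in each library for 14 members and *Cdkn1a*, by group (x axes), with 1 symbol shape per replicate number and the mean and SD of 4 libraries in black. *Dram1* and *Fas* rise at both days with no overlap, *Btg2*, *Bbc3*, *Bax* and *Trp53inp1* are above their controls at day 1 and below them at day 5, and *Plk2* and *Cdkn1a* are high in exposed day 5 replicates 2 and 4.

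Among the 6 genes tied to growth arrest, 2 were called higher at day 1, beside 13.4% of all genes tested. At day 5 there were 3 higher, beside 28.6% of all genes, 2 lower, beside 28.4%, and 1 not called. *Gadd45a*, a small stress protein that binds cell cycle kinases and PCNA, was measured at 34.9, 28.7, 32.6 and 37.2 CPM in uninfected and 49.7, 43.9, 50.3 and 52 CPM in exposed cells at day 1. At day 5 the values were 26.3, 24, 30.1 and 28.7 CPM and 74.3, 65.6, 50.1 and 70.1 CPM. Exposed libraries were above all controls at both days. The rise was 1.47-fold at day 1 (log2 fold change 0.55 ± 0.11 SE, edgeR adjusted p = 0.00142) and 2.38-fold at day 5 (log2 fold change 1.25 ± 0.11 SE, edgeR adjusted p = 1.67e-08), larger at day 5 (edgeR adjusted p of the interaction = 0.00189). *Plk2*, a polo-like kinase with a part in centrosome duplication, was measured at 35.1, 34.5, 31.7 and 35 CPM in uninfected and 39.7, 44.2, 41 and 42.4 CPM in exposed libraries at day 1. By day 5 uninfected libraries held 51.6, 52, 53 and 57.2 CPM and exposed libraries 102, 364, 95.1 and 338 CPM. No groups overlapped, yet the exposed day 5 values formed a wide range, with replicates 2 and 4 far above replicates 1 and 3. The day 5 rise was 4.21-fold (log2 fold change 2.07 ± 0.33 SE, edgeR adjusted p = 4.79e-05), while the day 1 difference was not called (log2 fold change 0.30 ± 0.32 SE, edgeR adjusted p = 0.548) unless day 1 was fitted alone (edgeR adjusted p = 0.000286).

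*Btg2*, an antiproliferative cofactor of mRNA decay, changed direction. It was measured at 28.3, 32.3, 32.3 and 28.3 CPM in uninfected and 47.8, 48.2, 54.6 and 42.6 CPM in exposed libraries at day 1. At day 5 uninfected libraries held 68.9, 76.1, 87.6 and 83.7 CPM and exposed libraries 39.4, 34.7, 38 and 36 CPM. The uninfected level was 2.61-fold higher at day 5 than at day 1 (edgeR adjusted p = 1.02e-08), and the exposed level was above the controls at day 1 and below them at day 5 in every library. The log2 fold change was 0.67 ± 0.09 SE at day 1 (edgeR adjusted p = 2.42e-05) and −1.10 ± 0.09 SE at day 5 (edgeR adjusted p = 5.26e-09). *Ccng1*, cyclin G1, one of the first p53 targets described, averaged 293 ± 18 and 336 ± 32.6 CPM at day 1 and was not called, then 298 ± 13.3 CPM in uninfected and 170.4 ± 31.7 CPM in exposed day 5 cells, a fall to below all controls (log2 fold change −0.81 ± 0.11 SE, edgeR adjusted p = 5.85e-06). *Plk3*, a related kinase, was called 1.15-fold higher at day 5 with overlapping groups (log2 fold change 0.20 ± 0.081 SE, edgeR adjusted p = 0.0412), and this call was lost in 16 of 26 alternative settings. *Gdf15*, a secreted stress cytokine often used as a readout of p53, stood at 142 ± 13 CPM in uninfected and 125 ± 28.3 CPM in exposed day 5 cells and was not called at day 5 (log2 fold change −0.18 ± 0.12 SE, edgeR adjusted p = 0.206) or day 1 (log2 fold change −0.20 ± 0.12 SE, edgeR adjusted p = 0.255), though it was called lower at day 1 with day 1 fitted alone and at day 5 with library totals and without exposed day 5 replicate 2.

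In the cell death group 4 of 12 tested genes rose at day 1, beside 13.4% of all genes tested. At day 5, 2 of the 12 rose, beside 28.6% of all genes, and 7 fell, beside 28.4%. The genes that rose at day 5 were both receptors of the tumour necrosis factor family. *Fas*, the receptor of Fas ligand, was measured at 13.5, 13.9, 12.8 and 12.3 CPM in uninfected and 41.7, 38.4, 44.2 and 45.2 CPM in exposed cells at day 1. Its day 5 level was 15.2, 15.2, 15.8 and 17.1 CPM in uninfected and 53.9, 98.2, 72.2 and 67.9 CPM in exposed cells. The lowest exposed library was far above the highest control at both days. The rise was 3.22-fold at day 1 (log2 fold change 1.69 ± 0.13 SE, edgeR adjusted p = 1.47e-08) and 4.62-fold at day 5 (log2 fold change 2.21 ± 0.13 SE, edgeR adjusted p = 4.54e-11), the largest log2 fold change of any member at each day. *Eda2r*, the receptor of an ectodysplasin form, was scarce, with 1.62, 1.75, 1.41 and 1.99 CPM in uninfected and 2.00, 2.55, 2.71 and 1.91 CPM in exposed day 1 libraries. Day 5 levels were 1.26, 1.26, 0.94 and 1.03 CPM and 2.44, 2.52, 3.18 and 2.29 CPM. The groups overlapped at day 1 and were apart at day 5, where the rise was 2.33-fold (log2 fold change 1.22 ± 0.18 SE, edgeR adjusted p = 1.06e-05). The uninfected level had fallen between days (log2 fold change −0.60 ± 0.18 SE, edgeR adjusted p = 0.0264). For *Tnfrsf10b*, the related receptor that was not tested, the 4 libraries of a group held 10 to 28 counts in sum.

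*Bbc3* and *Bax* belong to the mitochondrial arm of apoptosis, in which PUMA, the product of *Bbc3*, frees BAX to open the outer membrane. *Bbc3* was measured at 15.8, 11.5, 17.4 and 14.4 CPM in uninfected and 22.8, 22.2, 20.7 and 25.6 CPM in exposed libraries at day 1. At day 5 the values were 16.9, 18.1, 14.9 and 13.6 CPM and 10.8, 8.05, 10.9 and 8.31 CPM. Every exposed library was above its controls at day 1 and below them at day 5, with log2 fold changes of 0.63 ± 0.13 SE (edgeR adjusted p = 0.00193) and −0.74 ± 0.13 SE (edgeR adjusted p = 9.18e-05). *Bax* showed the same order, with 49, 38.4, 49.1 and 44.1 CPM in uninfected and 63.2, 52, 54.6 and 61.4 CPM in exposed libraries at day 1. It stood at 48.9, 50.3, 49.1 and 39.9 CPM and 36.8, 31.8, 33.3 and 29.9 CPM at day 5. The groups were apart at both days, although at day 1 the lowest exposed library exceeded the highest control by a small margin. The log2 fold changes were 0.36 ± 0.10 SE (edgeR adjusted p = 0.0129) and −0.51 ± 0.10 SE (edgeR adjusted p = 0.000184), and the day 1 call was lost without uninfected day 1 replicate 2. *Trp53inp1*, a nuclear stress protein that promotes p53 phosphorylation, was at 36, 40.6, 33.8 and 38.6 CPM in uninfected and 50.5, 57.5, 51.5 and 59.2 CPM in exposed cells at day 1. It was at 45.3, 44.9, 39.1 and 37.6 CPM and 29, 21.2, 35.1 and 23.4 CPM at day 5, above the controls first and below them later in every library. Its log2 fold changes were 0.55 and −0.62, with edgeR adjusted p = 0.00299 and 0.000256. For *Btg2*, *Bbc3*, *Bax* and *Trp53inp1* the log2 change of the effect between days was −1.77, −1.37, −0.87 and −1.17. It was called for each, with edgeR adjusted p between 1.27e-08 and 9.72e-05, and stayed called in all 25 alternative settings. These genes were grouped by their calls in opposite directions in the same libraries. A negative change follows largely from that choice and is not separate evidence.

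The other cell death genes that fell at day 5 were not called at day 1. *Perp*, a membrane protein of cell junctions and apoptosis, was measured at 155, 170.1, 154 and 147 CPM in uninfected and 153, 152, 154 and 126 CPM in exposed day 1 libraries. At day 5 uninfected libraries held 188, 184, 227 and 210.0 CPM and exposed libraries 104, 95.7, 94.8 and 83.5 CPM. The groups overlapped at day 1 and were far apart at day 5, where *Perp* was 2.14-fold lower (log2 fold change −1.10 ± 0.092 SE, edgeR adjusted p = 7.47e-09). *Apaf1*, the scaffold that activates caspase-9, was at 31.7 ± 4.16 CPM in exposed against 48.9 ± 6.04 CPM in uninfected day 5 cells (log2 fold change −0.62 ± 0.10 SE, edgeR adjusted p = 1.86e-05). *Ei24*, an endoplasmic reticulum protein, was at 86.9 ± 7.99 against 144 ± 7.34 CPM (log2 fold change −0.73 ± 0.079 SE, edgeR adjusted p = 2.09e-07). *Zmat3*, an RNA-binding zinc finger protein, fell least of the 7, from 48.2 ± 6.7 to 37.8 ± 5.18 CPM with overlapping libraries (log2 fold change −0.35 ± 0.10 SE, edgeR adjusted p = 0.00467), and its call was lost without exposed day 5 replicates 2 and 3, the 2 libraries of another code series. *Pmaip1*, which encodes the BH3-only protein NOXA, *Aen*, an apoptotic nuclease, and *Phlda3*, an inhibitor of AKT, were not called at either day. Their day 5 log2 fold changes were 0.10 ± 0.11, 0.14 ± 0.10 and −0.27 ± 0.12 SE, and *Phlda3* was called lower at day 5 in 4 of 26 alternative settings, among them without exposed day 5 replicate 1 (−0.42, edgeR adjusted p = 0.00271) and without uninfected day 1 replicate 2 (−0.27, edgeR adjusted p = 0.0435).

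**Figure D3:**
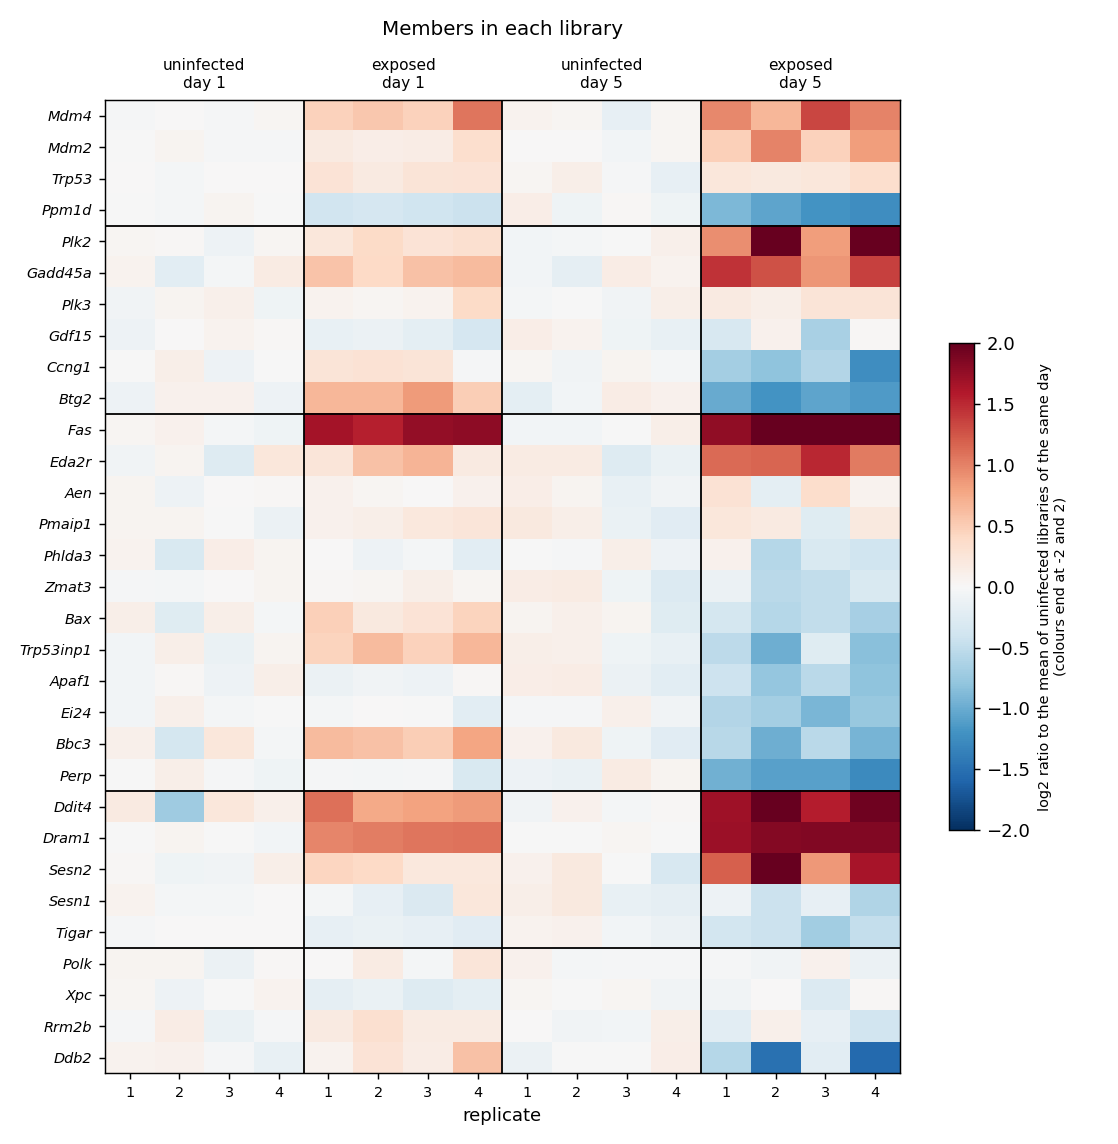
Each of the 31 tested members (y axis, by role) in each of the 16 libraries (x axis, replicates by group), coloured by the log2 ratio of its CPM to the mean of the uninfected libraries of the same day, from blue (lower) to red (higher). *Fas*, *Ddit4* and *Dram1* are red in all 8 exposed libraries, and *Plk2* and *Ddb2* differ between exposed day 5 replicates 2 and 4 and replicates 1 and 3.

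The 5 genes that restrain growth metabolism or promote autophagy gave 2 calls at day 1, both higher, beside 13.4% of all genes tested. At day 5, 3 of the 5 were higher, beside 28.6% of all genes, and 1 was lower, beside 28.4%. *Dram1*, a lysosomal membrane protein needed for p53-driven autophagy, was measured at 54.6, 56.7, 54.7 and 52.8 CPM in uninfected and 107, 111, 115 and 117 CPM in exposed cells at day 1. The day 5 values were 59.3, 58.9, 60.8 and 59 CPM and 195, 211, 214 and 214 CPM. Replicates lay close together within each group and the groups were far apart. *Dram1* was 2.06-fold higher at day 1 (log2 fold change 1.04 ± 0.063 SE, edgeR adjusted p = 5.12e-10) and 3.51-fold higher at day 5 (log2 fold change 1.81 ± 0.064 SE, edgeR adjusted p = 1.28e-13), the smallest adjusted p of any member at each day. *Ddit4*, which encodes the mTORC1 inhibitor REDD1, was at 5.67, 3.07, 5.88 and 5.39 CPM in uninfected and 10.7, 8.5, 8.75 and 9.03 CPM in exposed day 1 libraries. At day 5 the values were 7.1, 7.9, 7.26 and 7.6 CPM and 24.2, 38.2, 22.2 and 28.7 CPM. Exposed libraries were above all controls at both days, by 1.85-fold (log2 fold change 0.89 ± 0.18 SE, edgeR adjusted p = 0.00158) and 3.8-fold (log2 fold change 1.92 ± 0.18 SE, edgeR adjusted p = 3.59e-08).

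*Sesn2*, a sestrin that senses leucine and holds back mTORC1, was measured at 45.8, 42.4, 43 and 48.5 CPM in uninfected and 60.7, 59.3, 51.7 and 52.2 CPM in exposed libraries at day 1. It reached 102, 182, 81.5 and 141 CPM in exposed day 5 libraries against 47.4, 51.3, 44.4 and 35.7 CPM in uninfected ones. Exposed and uninfected libraries of the same day did not overlap, and exposed day 5 replicates 2 and 4 were again the highest. The day 5 rise was 2.83-fold (log2 fold change 1.5 ± 0.18 SE, edgeR adjusted p = 2.19e-06), whereas the day 1 difference was not called (log2 fold change 0.32 ± 0.18 SE, edgeR adjusted p = 0.217) unless day 1 was fitted alone (edgeR adjusted p = 0.000563) or the 2 libraries of another code series were left out (edgeR adjusted p = 0.0301). Its paralog *Sesn1* stood at 6.13 ± 0.79 CPM in uninfected and 4.94 ± 0.793 CPM in exposed day 5 cells and was not called (log2 fold change −0.31 ± 0.13 SE, edgeR adjusted p = 0.0566), although it was called lower in 7 of 26 alternative settings. Of these, 6 left out a library, exposed day 1 replicate 3 or 4, uninfected day 5 replicate 3 or 4, or exposed day 5 replicate 1 or 3, with log2 fold changes between −0.39 and −0.31. *Sesn2* and *Ddit4* are also known targets of ATF4, a transcription factor of the integrated stress response. *Tigar*, a phosphatase that lowers glycolytic flux, was at 85.2 ± 7.85 CPM in exposed against 119.6 ± 8.34 CPM in uninfected day 5 cells, 1.4-fold lower (log2 fold change −0.49 ± 0.075 SE, edgeR adjusted p = 1.53e-05).

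None of the 4 genes of DNA repair and nucleotide supply was called at day 1, beside 23.8% of all genes in either direction. At that day 2 had an unadjusted p under 0.05 and DESeq2 called *Xpc* lower. At day 5, 1 of the 4 was called, and it was lower, beside 28.4% of all genes. With the 8 day 1 libraries fitted alone, 3 of the 4 were called. *Ddb2* (0.28, edgeR adjusted p = 0.0293) and *Rrm2b* (0.22, edgeR adjusted p = 0.0199) were higher, beside 23% of all genes. *Xpc* (−0.18, edgeR adjusted p = 0.0197) was lower, beside 21.3%. *Xpc* was also called lower at day 1 without exposed day 5 replicate 3 (−0.19, edgeR adjusted p = 0.0255). *Ddb2*, which recognises ultraviolet lesions, was at 10.7, 5.62, 13.5 and 5.36 CPM in exposed and 14.5, 15.6, 15.6 and 17.3 CPM in uninfected day 5 libraries. Replicates 2 and 4 were the lowest, while replicate 3 lay just below the lowest control. It was 1.79-fold lower (log2 fold change −0.84 ± 0.22 SE, edgeR adjusted p = 0.00389). *Xpc*, the partner lesion sensor, *Polk*, a translesion polymerase, and *Rrm2b*, the p53-inducible subunit of ribonucleotide reductase, had day 5 log2 fold changes of −0.07 ± 0.076, −0.03 ± 0.078 and −0.15 ± 0.10 SE and were not called, although *Rrm2b* was called lower in 3 of 26 alternative settings, among them without exposed day 5 replicate 2 (−0.25, edgeR adjusted p = 0.0212).

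The effect of exposure differed between days for 21 of the 31 members (67.7%, beside 35.9% of all genes tested) by the edgeR interaction test. It was higher at day 5 for 8 (25.8%, beside 16.4% of all genes tested) and lower for 13 (41.9%, beside 19.5%). All 8 of the former were called higher at day 5 (*Mdm2*, *Gadd45a*, *Plk2*, *Fas*, *Eda2r*, *Sesn2*, *Ddit4* and *Dram1*), and 12 of the latter were called lower there, the other being *Rrm2b*. The interaction of *Fas* was called with an edgeR adjusted p of 0.027 and lost in 8 of 25 settings, that of *Zmat3* in 7, of *Tigar* in 6, of *Eda2r* in 4 and of *Rrm2b* in 17. In uninfected cells 11 members (35.5%) differed between days, beside 19.7% of all genes. Of these, 5 were higher at day 5 than at day 1 (16.1% of members, beside 10.8% of all genes) and 6 lower (19.4%, beside 8.91%). The higher ones were *Btg2*, *Plk3*, *Perp*, *Ddit4* and *Rrm2b*, and the lower ones *Trp53*, *Gdf15*, *Eda2r*, *Aen*, *Zmat3* and *Tigar*. Several of these calls were fragile, since that of *Rrm2b* was lost in 12 of 26 alternative settings, those of *Ddit4* and *Tigar* in 9 each and that of *Eda2r* in 8, mostly on leaving out 1 library, while that of *Btg2* was never lost. Apart from *Btg2* at 2.61-fold, these changes with culture time lay between 1.18-fold (*Tigar*) and 1.51-fold (*Eda2r*).

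Other genes of the pathway, from lists chosen with earlier results of these data known, did not share one direction either. Their counts are to be read beside the shares of all genes tested, 13.4% higher and 10.5% lower at day 1 and 28.6% higher and 28.4% lower at day 5. Of 24 kinases, cofactors and modifiers that act on p53, 3 were higher and 10 lower at day 1 and 3 were higher and 13 lower at day 5, with a day 5 median log2 fold change of −0.23. *Chek1* and *Chek2*, the checkpoint kinases, were 2.81-fold and 2.66-fold lower at day 5, *Prkdc*, the catalytic subunit of DNA-dependent protein kinase, 1.9-fold lower, and *Daxx*, an adaptor of the PML nuclear body, 3.14-fold higher, all called by edgeR with adjusted p of at most 9.33e-06. Of 38 further p53 targets, 33 were tested. At day 1 there were 5 higher and 5 lower, and at day 5 11 higher and 14 lower, with a median of −0.13. *Tob1*, a relative of *Btg2*, *Polh*, a translesion polymerase, and *Gtse1*, a p53-binding protein of G2 phase, were 2.87-fold, 2.91-fold and 3.35-fold lower at day 5, each with an edgeR adjusted p of at most 2.96e-07.

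The 22 cell cycle genes that p53 is known to lower through p21 and the DREAM repressor complex were all called lower at day 5, with a median log2 fold change of −2.02, and 7 were called lower at day 1. *Aurka*, *Cdc20*, *Ccnb1* and *Ccnb2*, which drive mitosis, were 3.98-fold, 4.9-fold, 4.29-fold and 4.16-fold lower at day 5 (edgeR adjusted p of at most 8.99e-08). *Cdkn1a* itself was not called at either day, and its exposed day 5 libraries lay on both sides of the controls. Such genes are known to be low in any cell that does not divide, and the cause of these falls was not tested. Of 19 tested genes of the ATF4 and CHOP stress programme, 7 were higher at day 1 and 14 were higher and 1 lower at day 5, with a day 5 median of 0.82. *Chac1*, *Slc7a11*, *Ddit3* and *Cebpg* were 4.22-fold, 9.82-fold, 4.03-fold and 1.76-fold higher (edgeR adjusted p of at most 1.17e-07). Among 17 tested genes that are relatives of p53 or of members, or partners of their products, 5 were higher and 9 lower at day 5. *Gadd45g* was 3.26-fold lower (log2 fold change −1.70 ± 0.11 SE, edgeR adjusted p = 2.37e-10) where its paralog *Gadd45a* was higher. *Plk1* was 3.97-fold lower where *Plk2* was higher. *Rrm1*, which encodes another subunit of ribonucleotide reductase and is not a paralog of *Rrm2b*, was 4.64-fold lower, while *Rrm2b* was not called. The lists share *Polh*, *Plk1* and *Ddit4l*.

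**Figure D4:**
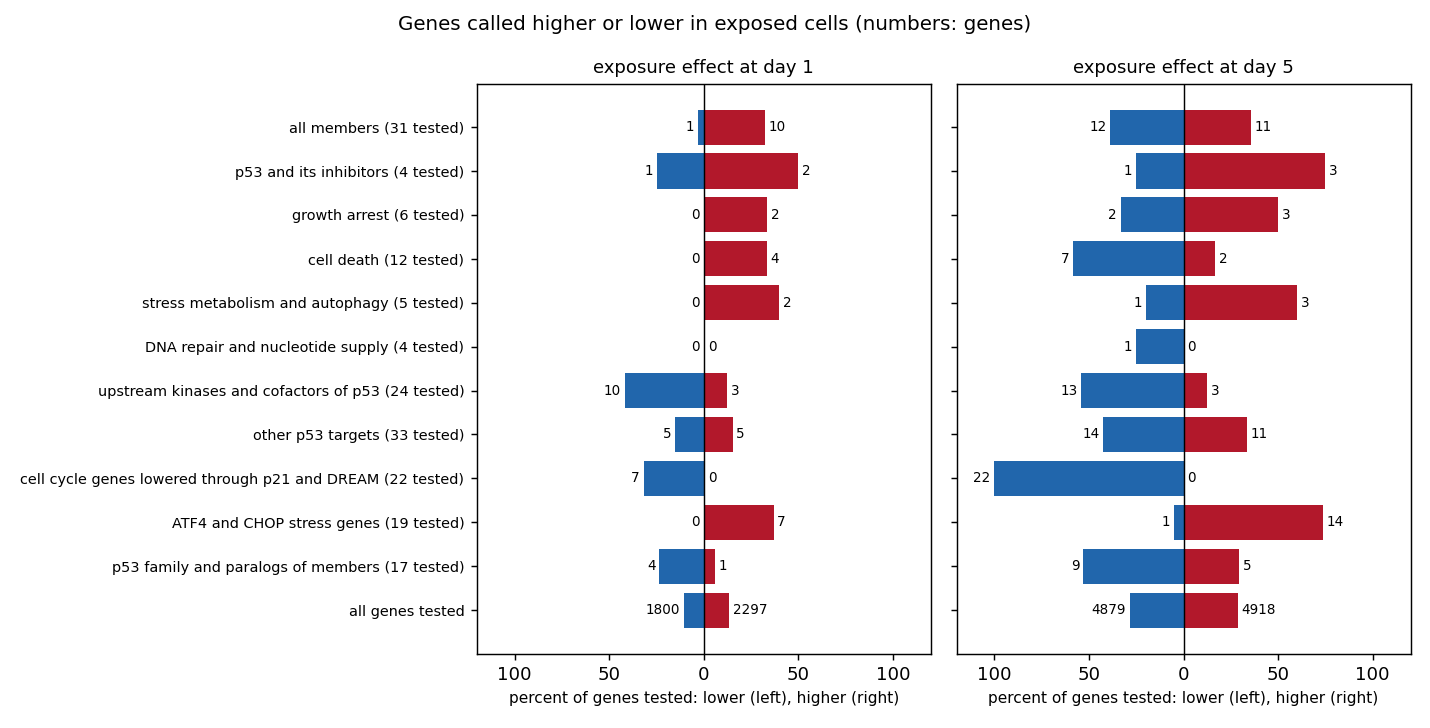
Percent of tested genes called lower (blue, to the left) and higher (red, to the right) in exposed cells at day 1 and day 5 (x axes) for all members, their 5 roles, 5 lists of other pathway genes and all genes tested (y axis), with the number of genes at each bar. At day 5 the members divide into 11 higher and 12 lower, the cell cycle list is wholly lower with 22 genes, and the ATF4 and CHOP list has 14 higher and 1 lower.

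Sorted by both days, 6 members were higher at both (*Trp53*, *Mdm4*, *Gadd45a*, *Fas*, *Ddit4* and *Dram1*), 5 at day 5 but not called at day 1 (*Mdm2*, *Plk2*, *Plk3*, *Eda2r* and *Sesn2*) and 4 were higher at day 1 and lower at day 5 (*Btg2*, *Bbc3*, *Bax* and *Trp53inp1*). *Ppm1d* was lower at both, and 7 were lower at day 5 but not called at day 1 (*Ccng1*, *Perp*, *Apaf1*, *Ei24*, *Zmat3*, *Tigar* and *Ddb2*). The remaining 8 tested members were not called at either day (*Gdf15*, *Pmaip1*, *Aen*, *Phlda3*, *Sesn1*, *Polk*, *Xpc* and *Rrm2b*). Over all genes tested, 23.8% were called at day 1 and 57% at day 5. The share of all genes in each of these classes was not counted, so the classes cannot be called particular to the members. Both comparisons rest on separate control libraries of their own day. Thus at day 5 *Mdm2*, *Fas*, *Plk2* and *Sesn2* were higher together with *Trp53* mRNA, while *Ccng1*, *Bax*, *Bbc3* and *Perp* were lower and *Cdkn1a*, *Gdf15* and *Phlda3* were not called.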

How the data were processed

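There were 16 RNA-seq libraries, 4 per group, labelled as biological replicates. Whether each came from a separately exposed culture is not given in the sources used here. Per the submitters' processing notes, reads were processed with STAR on GRCm39, and the program's version and annotation release are not given in the sources used here. What the authors deposited are raw counts of reads per gene (whole numbers, reverse-strand per the files' names), 1 table per library, with totals between 46154875 and 81995629.

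Symbols were matched by Ensembl identifier without version in GENCODE M21, which rests on an older assembly, so no gene coordinates are given. Counts without a symbol were 0.262% to 1.13% of a library. Where 2 identifiers carried 1 symbol (*Ddit3*), the one with more counts was used. Members were also looked up in RefSeq's promoter table (GRCm38.p6).

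Genes were filtered by filterByExpr by group (17190 kept), scaled by TMM and fitted with 1 mean per group over all 16 libraries by robust quasi-likelihood (edgeR 4.0.16, R 4.3.3). The contrasts were exposed against uninfected at day 1 and at day 5, their difference (the interaction), and uninfected day 5 against day 1. Tests were two-sided with Benjamini-Hochberg adjustment over the tested genes, called at an adjusted p under 0.05, and SE is the log2 fold change over the root of F. The script was tested on simulated data. p-values measure the spread between libraries labelled as biological replicates of one line. The 4 groups shared 1 dispersion (the estimate of spread between replicates) per gene. The wider spread of the exposed day 5 libraries therefore also enters the SE and p of the day 1 and uninfected contrasts.

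Members, lists and alternatives were chosen with earlier results of these data known. All members are named, with up to 4 genes per list by smallest day 5 p, of which 1 is not reported here. Values in every library are given for the 8 members with the largest day 5 log2 fold change among those called at both days or in the interaction, for *Trp53*, *Mdm2* and *Cdkn1a*, and, chosen after their values were seen, for *Btg2*, *Bbc3*, *Bax*, *Trp53inp1* and, at day 5, *Ddb2*. Alternatives were DESeq2 1.42.0, RLE size factors, library totals, 2 other filters, only the compared groups, a replicate block, leaving out each library, leaving out the 2 exposed day 5 libraries that carry another series of codes, and fitting the pairs of replicates 1 and 2 and of 3 and 4 separately. Figures were drawn with matplotlib 3.10.9.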

Additional observations from a re-analysis of the deposited data

Results flagged for a closer look

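In 15 of 132 sets of 4 libraries (32 members and *Cdkn1a* in 4 groups), the highest or lowest library lay far from the other 3 by Dixon's criterion for 4 values, which chance meets in about 1 of 20 sets. In exposed day 1 cells, replicate 4 was high for *Mdm4* (217.9 CPM, others 142 to 151) and *Plk3* (75.4, others 59.6 to 60.9) and low for *Ccng1* (288, others 349 to 357) and *Perp* (126, others 152 to 154), and replicate 2 was high for *Rrm2b* (19.7, others 17.7 to 17.9). In uninfected day 1 cells, replicate 2 was low for *Trp53* (65.5) and high for *Mdm2* (116), replicate 3 was low for *Plk2* (31.7) and replicate 1 was high for *Tnfrsf10b* (0.0879). In uninfected day 5 cells, replicate 3 was low for *Mdm4* (94.7), replicate 4 was low for *Bax* (39.9) and *Cdkn1a* (277), and replicate 1 was high for *Polk* (21.8). In exposed day 5 cells, replicate 3 was low for *Pmaip1* (18.8) and replicate 1 for *Dram1* (195).

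The effect of exposure at day 5 differed from that at day 1 for 21 members by edgeR's interaction test. On the log2 scale the effect was higher at day 5 by 1.78 for *Plk2*, 1.18 for *Sesn2*, 1.03 for *Ddit4*, 0.78 for *Eda2r*, 0.77 for *Dram1*, 0.70 for *Gadd45a*, 0.52 for *Fas* and 0.51 for *Mdm2*. The difference was −1.77 for *Btg2*, −1.37 for *Bbc3*, −1.17 for *Trp53inp1*, −1.12 for *Ddb2*, −1.01 for *Ccng1*, −0.998 for *Perp*, −0.87 for *Bax*, −0.70 for *Ppm1d*, −0.68 for *Ei24*, −0.56 for *Apaf1*, −0.41 for *Zmat3*, −0.36 for *Rrm2b* and −0.32 for *Tigar*. edgeR adjusted p lay between 1.27e-08 (*Btg2*) and 0.0454 (*Rrm2b*).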

How the results depend on the processing

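The members called at day 5 were the most stable: 18 of the 23 calls held in all 26 alternative settings, and the calls lost in some settings were those of *Trp53*, *Plk3*, *Trp53inp1*, *Zmat3* and *Ddb2*. Members called lower at day 1 (1 of 31) numbered 3 with DESeq2, 2 with RLE size factors, 2 with library totals, 4 with only the compared groups and 3 once the 2 exposed day 5 libraries with other codes were left out. With replicates 1 and 2 alone and with replicates 3 and 4 alone edgeR called 0 lower at day 1, where 1 member each had an unadjusted p under 0.05. Members called higher at day 1 (10) numbered 18 with only the compared groups, 6 with replicates 1 and 2 and 3 with replicates 3 and 4. For the interaction (8 higher, 13 lower) replicates 1 and 2 gave 2 higher, and replicates 3 and 4 gave 3 higher and 8 lower. For uninfected days (5 higher, 6 lower) there were 3 higher with genes of at least 1 read kept, 9 higher and 10 lower with only the compared groups, 2 higher and 0 lower with replicates 1 and 2 (3 lower at an unadjusted p under 0.05) and 1 higher and 1 lower with replicates 3 and 4. Halving the libraries leaves fewer samples to test, and the cause of the other shifts was not tested.

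With each library left out in turn, members called lower at day 1 numbered 1 to 3 (3 without exposed day 5 replicate 3), and over the same settings those of uninfected days numbered 3 to 6 higher and 3 to 8 lower. The count of 3 higher came without uninfected day 1 replicate 4 and without uninfected day 5 replicate 3 or 4, and that of 3 lower without uninfected day 5 replicate 4.

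The replicate numbers did not pair the libraries, since same-numbered libraries of different groups correlated between −0.151 and 0.148, with 3 of 24 pairs over 0.1 and 6 matching best. With the replicate block, day 1 had 10 members called higher and 1 lower, and day 5 had 11 higher and 13 lower. The interaction had 8 higher and 13 lower, uninfected days 4 and 6. The calls that differed were *Phlda3*, called lower at day 5 (−0.29, edgeR adjusted p = 0.0267), and *Ddit4*, no longer called between uninfected days (0.58, edgeR adjusted p = 0.0543).

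Signs turned only for differences that were not called with all libraries, and most of these log2 values lay near 0. For the interaction they were 0.010 for *Cdkn1a* with DESeq2 and with RLE size factors, −0.074 for *Trp53*, −0.021 for *Plk3* and −0.081 for *Gdf15* with library totals, 0.050 for *Pmaip1* when those 2 libraries were left out, and −0.11 for *Trp53*, −0.13 for *Gdf15* and −0.12 for *Aen* with replicates 1 and 2. For uninfected days *Xpc* stood at −0.00062 with DESeq2, −0.0012 with RLE size factors, −0.012 with library totals, −0.0019 with genes of at least 1 read kept and −0.031 with replicates 3 and 4, *Ccng1* at −0.0039 with library totals, and *Mdm2* at 0.0021 with the filter of 1 CPM in 4 libraries. *Sesn2* stood at 0.0086 with that filter, 0.0012 with only the compared groups and 0.16 with replicates 1 and 2, which also gave −0.043 for *Ccng1* and 0.074 for *Apaf1*. Replicates 3 and 4 gave −0.024 for *Mdm4*, −0.16 for *Bbc3* and −0.067 for *Bax* there. For exposure, the values were 0.063 for *Phlda3* at day 1 and −0.033 for *Aen* at day 5 with replicates 1 and 2, and for *Polk* at day 5 0.0081 with the filter of 1 CPM and 0.012 with replicates 3 and 4. With each library left out, the ranges that crossed 0 were, for the interaction, −0.048 to 0.041 for *Trp53*, −0.092 to 0.14 for *Gdf15*, −0.13 to 0.036 for *Pmaip1* and −0.22 to 0.11 for *Cdkn1a*. For uninfected days they were −0.080 to 0.086 for *Sesn2*, −0.026 to 0.0050 for *Mdm2*, −0.0018 to 0.19 for *Bbc3*, −0.012 to 0.13 for *Bax*, −0.017 to 0.043 for *Xpc* and −0.010 to 0.062 for *Ccng1*, and for exposure −0.16 to 0.0097 for *Sesn1* at day 1 and −0.31 to 0.017 for *Cdkn1a* at day 5. Depth limits *Tnfrsf10b*, which was not tested.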
